A study of Arabidopsis thaliana with 16 samples.

Results

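Flowering time in Arabidopsis thaliana is set in part by the 5 genes described here, GI, SNZ, SMZ, AGL24 and AGL19. They were chosen by name, as the probe sets that the platform annotation gives to 1 gene, and each of the 5 had 1 such probe set, out of 13356 genes that the array covers in this way. The loci are AT1G22770 for GI on chromosome 1, AT2G39250 for SNZ on chromosome 2, AT3G54990 for SMZ on chromosome 3, and AT4G24540 and AT4G22950 for AGL24 and AGL19 on chromosome 4, by the TAIR10.1 gene table. The members were chosen by function, but results of these data were known when the choice was made.

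The samples were whole Arabidopsis plants without their roots, of the Landsberg erecta wild type (Ler) and of phyB-1, which lacks working phytochrome B, a red and far-red light receptor. Each genotype was sampled at 16 and at 22 °C and at 4 and 10 h, with 2 Affymetrix ATH1 arrays in each of the 8 groups, 16 arrays in all. All groups shared 5 days of cold, dark stratification of the seeds at 4 °C and growth on soil, with the same wording of a stay at 16 °C for 11 days before 21 days at 22 °C, so how the plants labelled 16 °C were kept is not clear. The labels do not give the event from which the 4 and 10 h run, or the day length. They also do not say whether both arrays of a group came from separate plants or how many plants were pooled, so the p-values measure the spread between these arrays, which may be technical.

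Flowering in Arabidopsis is decided by several inputs that meet on a small set of activating genes. GI (GIGANTEA) is a large protein of the circadian clock and of the day-length pathway, where it helps remove repressors of CONSTANS and so promotes flowering in long days. SMZ (SCHLAFMUTZE) and SNZ (SCHNARCHZAPFEN) are closely related AP2-type transcription factors that delay flowering and whose transcripts are targets of a microRNA. AGL24 and AGL19 are MADS-box transcription factors that promote flowering, AGL24 also in the inflorescence meristem, while AGL19 is held silent by Polycomb proteins and is released by long cold. Phytochrome B delays flowering, and phyB mutants flower early.

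The values are linear MAS5 intensities, 1 per probe set, and the array median lay between 30.7 and 41.0. GI was the brightest of the 5, with a mean of 146 over the 16 arrays and a range of 57.7 to 255. SNZ had the widest range as a ratio of highest to lowest value, 72.8, from 2.48 to 180 around a mean of 74.8. AGL24 had a mean of 47.9 (21.9 to 70.8) and SMZ a mean of 31.5 (5.22 to 102). AGL19 was dim on every array, with a mean of 23.3 and a range of 10.4 to 35.7. Different probe sets do not share a scale, so these means do not rank the genes by transcript number. All 5 members were among the 13647 probe sets tested, those with a mean log2 value in the upper 60%, with AGL19 closest to the limit, at percentile 41.8 of all probe sets.

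A pair of arrays, the second replicates of phyB-1 at 16 °C, went against their labelled time on the whole array. A time score was the mean log2 deviation of an array over the 200 probe sets highest at 10 h relative to 4 h, less that over the 200 lowest. The probe sets and the reference means came from the Ler groups and phyB-1 at 22 °C, leaving out the array's own group and the 5 members. The doubtful 4 h array had a score of 2.33, against -2.84 to -2.38 for the 7 remaining 4 h arrays. The doubtful 10 h array had a score of -1.90, against 1.98 to 2.91 for the 7 remaining 10 h arrays. Replicates correlated at 0.863 and 0.878 in these 2 groups and at 0.96 to 0.975 in the others. Both arrays keep their labels here, and results are given with all 16 arrays and in a fit of 14 arrays without them, with the replicate number as a block. That fit keeps 1 array per time for phyB-1 at 16 °C, which is assumed to vary like the other groups. The 2 arrays were left out because they went against their labelled time. The SEs and calls of the 14-array fit thus follow in part from that choice, for time and for temperature, for the members and over all probe sets. So do the sizes where phyB-1 at 16 °C enters, and the counts and ranges of time given without these 2 arrays.

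The tissue label was checked on marker genes listed by symbol. Of 17 green leaf markers, 3 had a named probe set, LHCB4.1, RCA and PSBY, with means of 7738, 7609 and 4935. Of 11 root markers, EXPA7 and EXPA18 were named, both below the limit for testing, with a summed level of 5.69 to 67.0 over all arrays. The 1 named floral organ marker of 13, SPL, stayed between 0.625 and 3.84. Of 8 pollen and anther markers 4 were named, with a summed level of 23.2 to 78.0, most of it from AGL65 (mean 32.3), while ACT12 and AMS had means of 4.13 and 3.64. In such whole shoots, fewer cells of a type and less RNA per cell cannot be told apart.

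**Figure D1:**
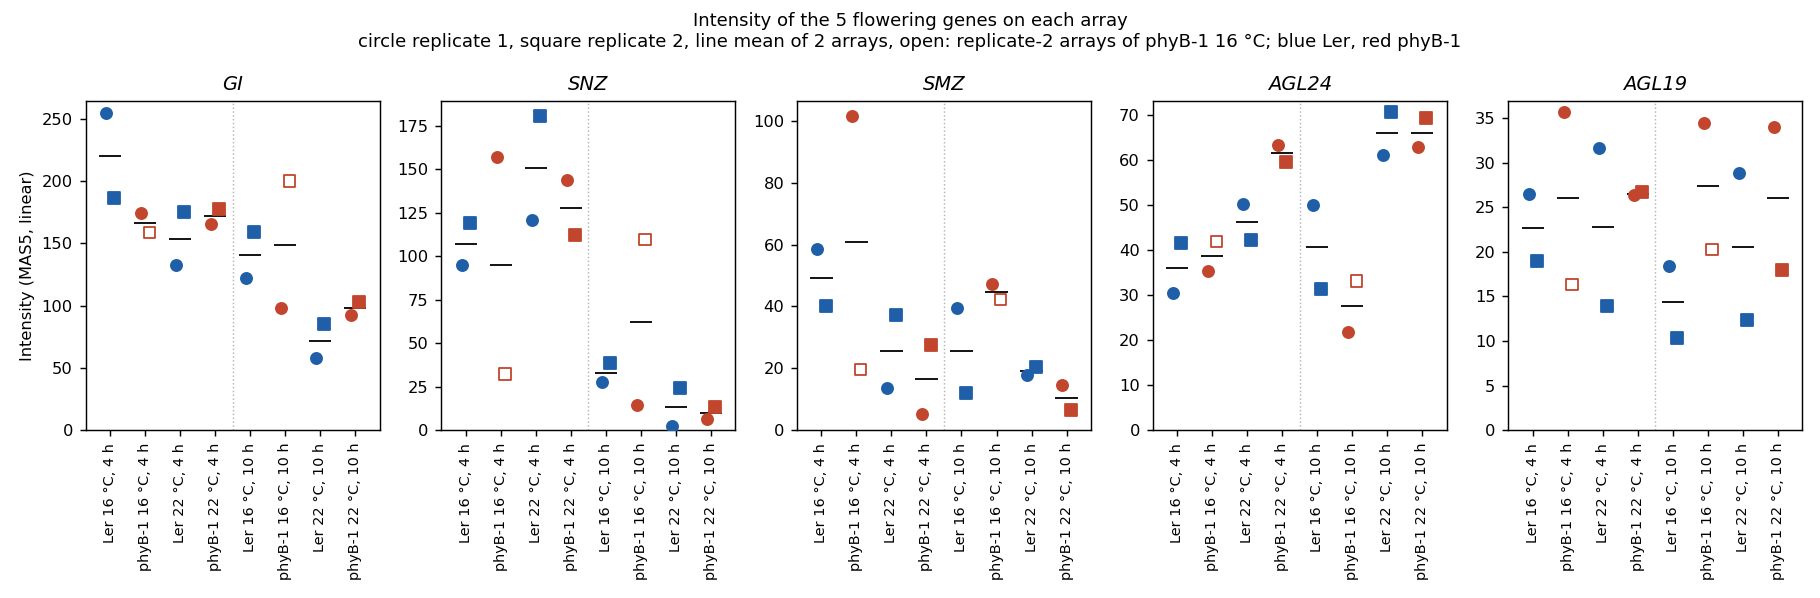
Linear MAS5 intensity (y axis, from 0) of each gene on each of the 16 arrays, in 8 groups (x axis), with circles for replicate 1, squares for replicate 2, a line at the mean of 2 arrays and open squares for the 2 arrays in doubt. SNZ falls from 94.9 to 180 on the other 4 h arrays to 2.48 to 38.6 on the other 10 h arrays, and AGL24 is highest in the 22 °C groups.

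The strongest difference among the 5 genes was that between 4 and 10 h in SNZ, a repressor of flowering. In Ler at 16 °C, SNZ stood at 94.9 and 119 on the 4 h arrays and at 27.5 and 38.6 on the 10 h arrays. In Ler at 22 °C it stood at 121 and 180 at 4 h and at 2.48 and 23.9 at 10 h. The groups did not overlap at either temperature, and the lower 10 h value at 22 °C lay below the lower quartile of its array.

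In phyB-1 at 22 °C, SNZ was at 144 and 112 on the 4 h arrays and at 6.64 and 13.1 on the 10 h arrays. In phyB-1 at 16 °C, replicate 1 read 157 at 4 h and 14.6 at 10 h, while replicate 2 read 32.3 on the array labelled 4 h and 110 on the array labelled 10 h. Replicate 1 thus went the way of the other groups and replicate 2, the 2 arrays in doubt, went the opposite way. Without these 2 arrays the mean was 132 ± 29.3 at 4 h and 18.1 ± 12.6 at 10 h (SD, n = 7 each), and no 10 h array reached a 4 h array. That separation follows in part from leaving out arrays that went against their labelled time. With all 16 arrays the ranges overlapped, at 32.3 to 180 for 4 h and 2.48 to 110 for 10 h.

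Over all 16 arrays SNZ fell by 1.74 ± 0.31 (SE) on the log2(intensity + 16) scale between 4 and 10 h (limma, adjusted p = 0.003). In the 14-array fit, which leaves out the arrays against their labelled time, it fell by 2.22 ± 0.15. Because 16 is added before the logarithm, these differences understate the change, most where the 10 h value is low. In Ler at 10 h SNZ read 2.48 and 23.95 at 22 °C. It read 27.5 and 38.6 at 16 °C, above the lower quartiles of those arrays, 9.81 and 6.75. In Ler alone SNZ fell by 1.96 ± 0.44 with 16 arrays (limma, adjusted p = 0.0095), with -2.12 between the replicates 1 and -1.80 between the replicates 2. In phyB-1 at 22 °C the difference was -2.48 ± 0.62 with 16 arrays (limma, adjusted p = 0.053), a call missed there and made in the 14-array fit (-2.48 ± 0.26, adjusted p = 1.9e-06).

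GI, the clock and day-length gene, was also lower at 10 h. In Ler at 16 °C it read 255 and 186 at 4 h and 122 and 159 at 10 h, and in Ler at 22 °C 133 and 175 at 4 h and 57.7 and 85.5 at 10 h. In phyB-1 at 22 °C it read 166 and 177 at 4 h and 92.5 and 103 at 10 h. In each of these 3 settings both 10 h arrays lay below both 4 h arrays.

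In phyB-1 at 16 °C GI read 174 at 4 h and 98.1 at 10 h in replicate 1, and 159 and 200 in replicate 2. GI was lower at 10 h in 7 of 8 pairs of arrays with the same genotype, temperature and replicate number, and in all 7 pairs without the arrays in doubt, where the log2 difference ran from -1.01 to -0.21. Over all 16 arrays it fell by 0.62 ± 0.15 (limma, adjusted p = 0.01). In the 14-array fit, which leaves out the arrays against their labelled time, it fell by 0.75 ± 0.11. Centring each of the 16 arrays on its median ended the call over all groups, at -0.585 (limma, adjusted p = 0.052), and in Ler, at -0.723 (limma, adjusted p = 0.092). In Ler it fell by 0.78 ± 0.21 (limma, 16 arrays, adjusted p = 0.021), from a mean of 187 ± 50.6 to 106 ± 44.0 (SD, n = 4). That call was lost, at adjusted p = 0.073 to 0.092, without the array of 22 °C 10 h replicate 1, 16 °C 4 h replicate 1, 16 °C 10 h replicate 1 or 22 °C 4 h replicate 2. In phyB-1 at 22 °C GI was at -0.72 ± 0.29 (limma, 16 arrays, adjusted p = 0.18) and fell by 0.72 ± 0.20 in the 14-array fit (limma, adjusted p = 0.017).

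**Figure D2:**
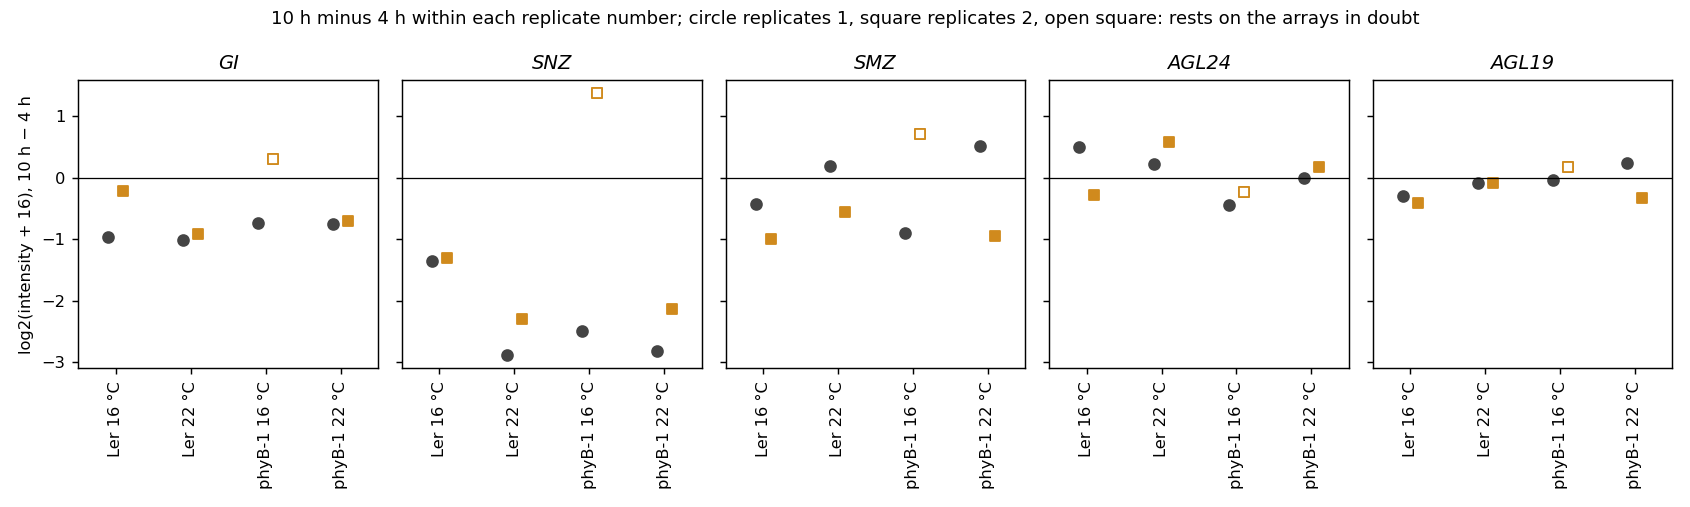
Difference of log2(intensity + 16) between 10 and 4 h (y axis) in each genotype and temperature (x axis), for replicates 1 (circles) and replicates 2 (squares), with open squares where the difference rests on the 2 arrays in doubt. SNZ and GI are below 0 in all 7 pairs without those arrays, and both are above 0 in the open squares, at 1.38 and 0.30.

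Many transcripts differed between the 4 and 10 h arrays, so calls of time are common. Between 4 and 10 h, 19.1% of the tested probe sets were called at an adjusted p under 0.05 with 16 arrays and 39.7% in the 14-array fit, against 2 of the 5 members in both fits (limma). The share called was 17.2% and 32.5% in Ler, where 2 members were called in both fits, and 2.45% and 21.5% in phyB-1 at 22 °C, where 0 and 2 were. With 16 arrays, 2 members and 20.1% of all tested probe sets had an unadjusted p under 0.05 in phyB-1 at 22 °C. In size, SNZ lay at percentile 0.659 of the 13647 differences with 16 arrays, and GI at percentile 6.23. The summed level of the 3 green leaf markers moved with time as well, from 21660 to 28990 on the other 4 h arrays to 12850 to 19080 on the other 10 h arrays, and its part in these differences was not tested.

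The other 3 members were not called for time in any of these comparisons. SMZ, the second AP2-type repressor, was at -0.30 ± 0.26 over all 16 arrays (limma, adjusted p = 0.48) and at -0.50 ± 0.22 in the 14-array fit (limma, adjusted p = 0.076). It was lower at 10 h in 5 of the 7 pairs without the arrays in doubt. AGL24 was at 0.06 ± 0.12 and AGL19 at -0.10 ± 0.18 with 16 arrays (limma, adjusted p = 0.79 and 0.76). AGL24 was higher at 10 h in 4 of those 7 pairs, and AGL19 was lower in 6 of 7.

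**Figure D3:**
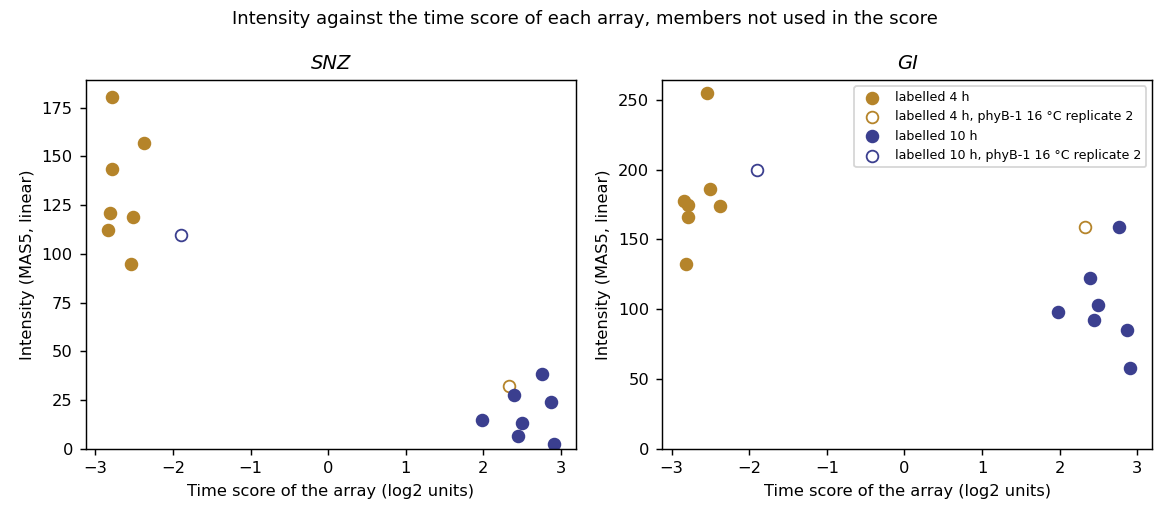
Intensity of SNZ and GI (y axes, linear MAS5 units, from 0) against the time score of each array in log2 units (x axis), coloured by labelled time, with open circles for the 2 arrays in doubt. By SNZ both open circles lie among the arrays of the other time, at 32.3 and 110, and by GI the array labelled 10 h reads 200 and the array labelled 4 h reads 159.

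Temperature was compared within each genotype. In Ler, GI was lower at 22 °C than at 16 °C at both times and in all 4 pairs of arrays with the same time and replicate number. The means over both times were 181 ± 56.0 at 16 °C and 113 ± 51.7 at 22 °C (SD, n = 4). At 10 h the replicates gave log2 differences of -0.91 and -0.78, and at 4 h -0.86 and -0.08. The averaged difference was -0.66 ± 0.21 with 16 arrays (limma, adjusted p = 0.26), not called, and GI fell by 0.66 ± 0.14 in the 14-array fit (limma, adjusted p = 0.01).

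In phyB-1, GI read 174, 159, 98.1 and 200 at 16 °C and 166, 177, 92.5 and 103 at 22 °C, with overlap at both times. Its difference was -0.21 ± 0.21 with 16 arrays (limma, adjusted p = 0.77) and -0.09 ± 0.19 in the 14-array fit (limma, adjusted p = 0.81). The temperature difference was thus called in Ler and not in phyB-1 in the 14-array fit. The test of that contrast itself, the genotype by temperature interaction, gave 0.45 ± 0.29 with 16 arrays (limma, adjusted p = 1) and 0.57 ± 0.24 in the 14-array fit (limma, adjusted p = 0.52), and did not pass.

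AGL24, the MADS-box promoter of flowering, was higher at 22 °C in phyB-1. It read 35.5, 42.05, 21.9 and 33.2 at 16 °C and 63.5, 59.7, 62.9 and 69.4 at 22 °C, so the 4 warm arrays all lay above the 4 cool ones, those in doubt included. The difference was 0.72 ± 0.17 with 16 arrays (limma, adjusted p = 0.097), which missed the threshold. AGL24 rose by 0.87 ± 0.21 in the 14-array fit (limma, adjusted p = 0.021), and the replicates 1 and 2 taken alone gave 0.84 and 0.59.

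In Ler, AGL24 read 30.6, 41.7, 50.0 and 31.4 at 16 °C and 50.4, 42.2, 61.2 and 70.8 at 22 °C. All 4 pairs were higher at 22 °C, by 0.01 to 0.87 on the log2 scale, and the 4 h and 10 h arrays together overlapped between temperatures. The difference of 0.41 ± 0.17 was not called in either fit (limma, 16 arrays, adjusted p = 0.46, and 14 arrays, 0.41 ± 0.16, adjusted p = 0.15). Over both genotypes AGL24 averaged 35.8 ± 8.64 at 16 °C and 60.03 ± 9.54 at 22 °C (SD, n = 8).

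SMZ, the repressor, went the other way in phyB-1. Replicate 1 read 102 at 4 h and 47.2 at 10 h at 16 °C, and 5.22 and 14.5 at 22 °C. Replicate 2 read 19.7 and 42.3 at 16 °C and 27.7 and 6.66 at 22 °C, so the array labelled 4 h at 16 °C fell below its 22 °C partner. The value of 5.22 lay below the lower quartile of its array, 11.1, and the value of 6.66 lay just above that of its array, 5.87.

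Between 16 and 22 °C SMZ in phyB-1 was at -1.15 ± 0.37 with 16 arrays (limma, adjusted p = 0.24), not called. It fell by 1.62 ± 0.35 in the 14-array fit (limma, adjusted p = 0.012). The difference was -1.76 between the replicates 1 and -0.54 between the replicates 2, so its size rests on replicate 1. Leaving out 1 array at a time moved SMZ between -1.58, without the doubtful 4 h array, and -0.719. In Ler SMZ was at -0.43 ± 0.37 (limma, 16 arrays, adjusted p = 0.79), with means of 37.5 ± 19.2 at 16 °C and 22.4 ± 10.4 at 22 °C (SD, n = 4).

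**Figure D4:**
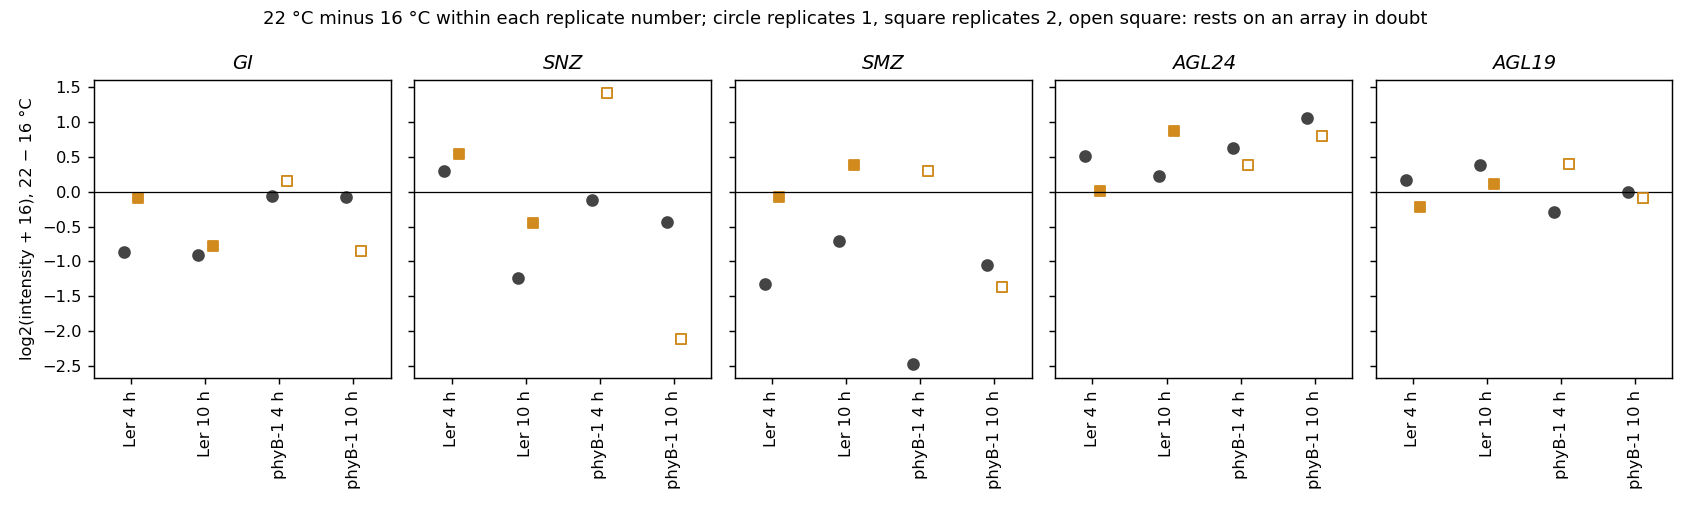
Difference of log2(intensity + 16) between 22 and 16 °C (y axis) at each time in each genotype (x axis), for replicates 1 (circles) and replicates 2 (squares), with open squares where an array in doubt enters. AGL24 lies above 0 in all 8 points, from 0.01 to 1.06, and SMZ spreads from -2.47 to 0.38.

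SNZ and AGL19 were not called for temperature. SNZ was at -0.21 ± 0.44 in Ler and -0.32 ± 0.44 in phyB-1 with 16 arrays (limma, adjusted p = 0.95 and 0.85). AGL19 was at 0.11 ± 0.26 and 0.00 ± 0.26 (limma, adjusted p = 0.96 and 1). AGL19 followed the replicate number more than any condition, being higher in replicate 1 in 7 of 8 groups (18.4 to 35.7 against 10.4 to 26.7). The lower quartile of the arrays moved the same way, at 9.63 to 11.5 for replicate 1 and 5.84 to 7.63 for replicate 2, and its part was not tested.

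With 16 arrays, 0 of the 5 members were called for temperature in Ler and 0 in phyB-1, where 0.396% and 0.638% of all tested probe sets were called (limma). At an unadjusted p under 0.05 there were 2 members in each, against 9.75% and 11.4% of all tested probe sets. In the 14-array fit 1 member was called in Ler and 2 in phyB-1, where 6.93% and 5.79% of all tested probe sets were. The 2 phyB-1 16 °C arrays kept in that fit had the highest log2 ratios of 3′ to 5′ GAPDH control signal of their times, 1.03 at 4 h and 1.63 at 10 h. By the actin control they were not the highest. Their actin ratio at 4 h was 3.21, against 3.05 to 3.99 on the other 4 h arrays. At 10 h it was 3.17, against 3.18 to 4.26 on the other 10 h arrays. The part of RNA quality in the SMZ and AGL24 differences was not tested. Both arrays in doubt had lower GAPDH ratios, 0.787 and 0.507. The differences within replicate 2 were 0.59 for AGL24 and -0.54 for SMZ, against 0.84 and -1.76 within replicate 1.

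Loss of phytochrome B gave no call in these genes at either temperature. At 22 °C the phyB-1 array had the higher GI value in each of the 4 pairs, by 0.02 to 0.56 on the log2 scale, and the averaged difference was 0.28 ± 0.21 (limma, 16 arrays, adjusted p = 1). SMZ read lower in all 4 pairs, by -0.68 to -0.16, with an average of -0.40 ± 0.37 (limma, 16 arrays, adjusted p = 1). In the 14-array fit these were 0.28 ± 0.14 and -0.40 ± 0.27 (limma, adjusted p = 0.47 and 0.6).

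At 22 °C AGL24 was at 0.16 ± 0.17, AGL19 at 0.19 ± 0.26 and SNZ at -0.14 ± 0.44 (limma, 16 arrays, adjusted p = 1 for each). At 4 h both phyB-1 arrays of AGL24, 63.5 and 59.7, lay above both Ler arrays, 50.4 and 42.2, while at 10 h they overlapped, at 62.9 and 69.4 against 61.2 and 70.8. The SE sets what could be seen, since for SNZ a difference of this size lies well inside 1 SE.

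At 16 °C the phyB-1 minus Ler difference was 0.31 ± 0.37 for SMZ, 0.29 ± 0.26 for AGL19, -0.04 ± 0.44 for SNZ, -0.15 ± 0.17 for AGL24 and -0.17 ± 0.21 for GI (limma, 16 arrays, adjusted p of at least 0.99). In the 14-array fit SMZ was at 0.79 ± 0.35 (limma, adjusted p = 0.38), the 1 member of 5 with an unadjusted p under 0.05, a level reached by 12.3% of all tested probe sets. With 16 arrays 0 members had one at 16 °C, against 5.09% of all tested probe sets, and at 22 °C 0 had one in either fit, against 4.4% with 16 arrays and 12.5% in the 14-array fit. Calls of genotype were rare over all probe sets, at 0.0293% for 22 °C and 0.0147% for 16 °C with 16 arrays, and 1.25% and 0.352% in the 14-array fit.

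**Figure D5:**
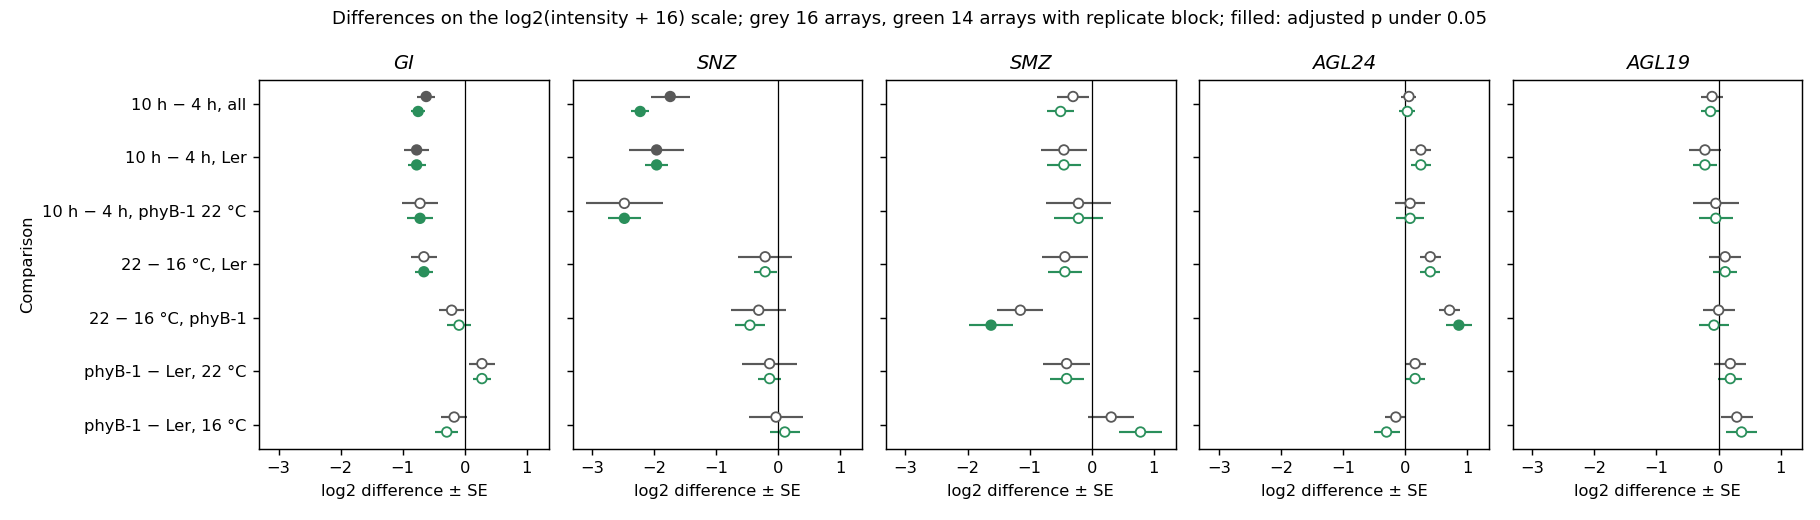
Differences on the log2(intensity + 16) scale with their SE (x axis) for 7 comparisons (y axis) of each gene, in grey for 16 arrays and in green for 14 arrays with the replicate block, filled where the adjusted p is under 0.05. SNZ and GI are filled in both fits for time over all groups and in Ler, and in the 14-array fit alone for time in phyB-1 at 22 °C, while GI in Ler and SMZ and AGL24 in phyB-1 are filled for temperature in the 14-array fit alone.

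The 3 interactions gave no call for any member with 16 arrays, where 0 of 13647 probe sets were called in each (0%), and 0 members had an unadjusted p under 0.05 (limma), against 2.35%, 3.77% and 0.557% of all tested probe sets for genotype by temperature, temperature by time in Ler and genotype by time at 22 °C. In the 14-array fit the share called was 0% for genotype by temperature, 0.879% for temperature by time in Ler and 0.00733% for genotype by time at 22 °C, again with 0 members, and 2, 1 and 0 members had an unadjusted p under 0.05, against 8.46%, 12.7% and 3.58% of all tested probe sets. The largest member value there was SNZ for temperature by time in Ler. Its 22 minus 16 °C difference at 10 h less that at 4 h was -1.26 ± 0.37 in that fit (limma, adjusted p = 0.14), and the 16-array fit gave the same size with an SE of 0.88 (adjusted p = 1). For SMZ the genotype by temperature interaction was -0.72 ± 0.53 with 16 arrays (limma, adjusted p = 1) and -1.19 ± 0.45 in the 14-array fit (limma, adjusted p = 0.49).

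The group means place the members as follows. For GI the order ran from Ler 16 °C 4 h (221 ± 48.3, SD, n = 2) through phyB-1 22 °C 4 h (172 ± 8.26), phyB-1 16 °C 4 h (167 ± 10.8), Ler 22 °C 4 h (154 ± 29.9), phyB-1 16 °C 10 h (149 ± 72.0) and Ler 16 °C 10 h (140 ± 26.0) to phyB-1 22 °C 10 h (97.9 ± 7.61) and Ler 22 °C 10 h (71.6 ± 19.6). Neighbours from the second to the sixth place overlapped, and the first and the last 2 stood clear of their neighbours. For SNZ the order was Ler 22 °C 4 h (151 ± 42.2), phyB-1 22 °C 4 h (128 ± 22.2), Ler 16 °C 4 h (107 ± 17.1), phyB-1 16 °C 4 h (94.7 ± 88.2) and phyB-1 16 °C 10 h (62.2 ± 67.3), then Ler 16 °C 10 h (33.1 ± 7.84), Ler 22 °C 10 h (13.2 ± 15.2) and phyB-1 22 °C 10 h (9.85 ± 4.53). All its neighbours overlapped except Ler 16 °C and Ler 22 °C at 10 h.

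For AGL24 the means of phyB-1 22 °C 10 h (66.2 ± 4.63), Ler 22 °C 10 h (66.0 ± 6.78) and phyB-1 22 °C 4 h (61.6 ± 2.71) came first and overlapped. They were followed, after a gap, by Ler 22 °C 4 h (46.3 ± 5.74), Ler 16 °C 10 h (40.7 ± 13.1), phyB-1 16 °C 4 h (38.8 ± 4.65), Ler 16 °C 4 h (36.2 ± 7.86) and phyB-1 16 °C 10 h (27.5 ± 7.97). Each of these overlapped its neighbour in the order, but Ler 22 °C 4 h, at 42.25 and 50.4, lay above every array of the last 3 groups, which reached at most 42.05. For SMZ the 3 highest groups were at 16 °C, phyB-1 at 4 h (60.7 ± 58.0), Ler at 4 h (49.3 ± 13.0) and phyB-1 at 10 h (44.8 ± 3.44), and the lowest was phyB-1 22 °C 10 h (10.6 ± 5.53). The remaining 4 groups of SMZ lay between 16.5 and 25.8 and overlapped. For AGL19 all neighbours overlapped, from phyB-1 16 °C 10 h (27.3 ± 9.98) to Ler 16 °C 10 h (14.4 ± 5.70), and the 4 phyB-1 groups had the 4 highest means.

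The rest of the pathway was scarcely covered. Of 125 symbols in the lists of flowering and clock genes, 10 had a probe set named to 1 gene and 8 were tested, the 5 members, AGL18, FY and LD. AGL18 is a MADS-box repressor of flowering, and FY and LD act in the autonomous pathway. None of these 3 was called in any of the 10 comparisons in either fit (limma), and their differences between 10 and 4 h were 0.09 ± 0.14, -0.29 ± 0.11 and -0.26 ± 0.15 over all 16 arrays (adjusted p = 0.7, 0.094 and 0.26). At 16 °C LD was at 0.51 ± 0.21 in phyB-1 against Ler (limma, 16 arrays, adjusted p = 0.97), not called, and this value rests in part on the 2 arrays in doubt. In that comparison 5.09% of all tested probe sets had an unadjusted p under 0.05 (limma). FD, which encodes the partner of the flowering signal FT at the shoot apex, and AGL42 were below the limit for testing, with means of 9.19 and 6.21.

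The genes most like each member were taken by Pearson's r of log2 values over the 16 arrays, among the 7373 other tested probe sets with 1 gene, as a description only, since arrays share their scaling and their labelled hour. For SNZ these were AT4G27700, AT3G57020, GR1, a glutathione reductase gene, and AT3G48460, at r of 0.957 to 0.953, and 90 probe sets had an r over 0.9. For GI they were AT1G20950, AT5G62440, AT3G54400 and AT5G62210, at 0.918 to 0.909, with 5 over 0.9. For SMZ they were AT1G15860, AT4G22510, AT1G63420 and HCF101, a gene of iron-sulfur protein assembly in the chloroplast, at 0.838 to 0.827. For AGL24 they were AT1G14890, AT1G74410, AT1G67860 and AT2G39000, at 0.877 to 0.823, and for AGL19 AT5G08750, AT4G01290, orfX and AT3G46450, at 0.889 to 0.863. Among the members themselves, GI and SNZ had an r of 0.827 (0.844 without the arrays in doubt), SMZ and AGL24 one of -0.63, and SMZ and SNZ, the pair of related repressors, one of 0.364.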

How the data were processed

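Arrays of whole shoots were compared over genotype, temperature and time, 2 arrays per group. The deposited values are linear intensity values. MAS5 and GCOS are named for them, with no version, per the submitters' processing notes, and other processing steps are not given in the sources used here. The 2% trimmed means of the deposited intensity columns were 100.01 to 100.013, so their scaling was kept. The platform annotation gave 1 gene to 13513 of the 22746 probe sets left after the 64 controls, several genes to 503 and no listing to 8730.

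In R 4.3.3 with limma 3.58.1, log2(intensity + 16) was fitted with 1 mean per group over 16 arrays, moderated by eBayes (trend on intensity), and adjusted after Benjamini-Hochberg over the 13647 probe sets in the upper 60% by mean. An adjusted p under 0.05 is a call. The number of arrays, 2 per group, limits the precision. The fit was run on simulated data with independent noise between arrays. That simulation held no deviation shared by replicate number and no arrays against their labelled time, so it does not cover these features of the data.

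Same-numbered arrays deviated together (r over 0.1) in 27 of 28 pairs of groups (lowest -0.433), and in 15 of 15 pairs without phyB-1 at 16 °C. By 1 exception the numbers were not taken as pairs in the 16-array fit. The replicate block enters the 14-array fit, from which the arrays in doubt are left out.

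Named genes were the members, called list genes (of smallest p, up to 4 per comparison) and the 4 genes most like each member. List genes that were not called or not tested, and markers, are named as well to show what the lists cover. Members and lists were chosen with earlier results of these data known. Alternatives were offsets 1 and 64, no filter, quantile normalization, median centring, no trend, the replicate block, fewer groups and leaving out each array.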

Additional observations from a re-analysis of the deposited data

Results flagged for a closer look

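In Ler the temperature difference of SNZ ran in opposite directions at the 2 times in every replicate. SNZ was higher at 22 °C than at 16 °C at 4 h, by 0.30 and 0.54 log2 units in replicates 1 and 2, and lower at 10 h, at -1.24 and -0.45. The difference between times was tested as an interaction, at -1.26 ± 0.88 with 16 arrays (limma, adjusted p = 1), and did not pass.

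The phyB-1 minus Ler difference of SMZ, averaged over times, was below 0 at 22 °C (-0.32 and -0.49 in replicates 1 and 2) and above 0 at 16 °C (0.42 and 0.21). The value of replicate 2 at 16 °C rests on the 2 arrays in doubt and went both ways, at -0.65 for 4 h and 1.06 for 10 h. Replicate 1 at 16 °C gave 0.66 and 0.19. The interaction was -0.72 ± 0.53 with 16 arrays (limma, adjusted p = 1), and did not pass.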

How the results depend on the processing

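Of 1320 member values recomputed under up to 27 alternatives per comparison, 1245 kept their direction and their side of the threshold, 6 lost a call, 20 gained one and 49 changed sign, and 33 of 50 pairs of member and comparison never changed sign. The replicate block over 16 arrays left the number of members called as it was, 2 for time over all groups, 2 for time in Ler and 0 in the other comparisons. With median centring the count for time fell from 2 to 1 over all groups and in Ler, as GI was at -0.585 (adjusted p = 0.052) and -0.723 (adjusted p = 0.092).

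For time in phyB-1 at 22 °C, 0 members were called with 16 arrays, against 2 with 14 arrays and the replicate block, 2 with 14 arrays and no block, 2 with the 12 arrays outside phyB-1 at 16 °C and 2 with only the groups compared. For temperature in Ler the count went from 0 to 1 with 14 arrays and the replicate block, with 14 arrays and no block, and with 12 arrays. For temperature in phyB-1 it went from 0 to 2 with 14 arrays, with and without the block. With only the groups compared, the count for temperature stayed at 0 in both genotypes. The fit of 14 arrays without the block was chosen after seeing the data. The arrays left out of all the 14-array and 12-array fits were also chosen with earlier results of these data known. Leaving out 1 array at a time gave 1 to 2 calls for time in Ler, 0 to 1 for time in phyB-1 at 22 °C (1 without any single phyB-1 16 °C array, with SNZ at adjusted p = 0.0084 to 0.011) and 0 to 1 for temperature in phyB-1. Over all probe sets the calls of time numbered 2613 with 16 arrays, 3128 with the block and 5415 with 14 arrays and the block. The calls of temperature numbered 54, 86 and 946 in Ler and 87, 129 and 790 in phyB-1. The cause was not tested.

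Among alternatives that keep all arrays of a group or leave out several, the sign changed in these cases. For AGL19 the values were 0.0492 with quantile normalization for time in phyB-1 at 22 °C, and -0.00295 with offset 64, -0.0736 with 14 arrays and the replicate block and -0.286 without the block for temperature in phyB-1. For SNZ they were 0.0225 with offset 64 and 0.105 with 14 arrays and the block for phyB-1 against Ler at 16 °C, and 0.0972 with offset 1 for genotype by temperature. Leaving out 1 array moved time in phyB-1 at 22 °C from -0.734 to 0.308 for SMZ and from -0.323 to 0.235 for AGL19. It moved temperature in Ler from -0.489 to 0.0667 for SNZ and from -0.0604 to 0.274 for AGL19, and temperature in phyB-1 from -0.442 to 0.0176 for GI, from -0.824 to 0.194 for SNZ and from -0.167 to 0.172 for AGL19. It moved phyB-1 against Ler at 22 °C from -0.418 to 0.138 for SNZ, and at 16 °C from -0.402 to 0.0579 for GI, from -0.116 to 0.744 for SMZ and from -0.546 to 0.473 for SNZ. Genotype by temperature ran from -0.613 to 0.406 for SNZ and from -0.274 to 0.0649 for AGL19, and temperature by time in Ler from -0.0635 to 0.606 for AGL19. Genotype by time ran from -0.552 to 0.49 for SMZ, from -0.442 to 0.67 for SNZ and from -0.296 to 0.374 for AGL19. With 2 arrays per group and AGL19, SMZ and the low SNZ values near the dim end of the arrays, small differences in these genes could not be resolved.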
